A study of Mus musculus with 272 samples.

Results

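H3K4me3, the trimethylation of lysine 4 on histone H3, is best known as the mark of promoters, where it is deposited by the SET1 and MLL methyltransferases, many of which reach DNA through proteins that bind unmethylated CpG. H3K27ac, the acetylation of lysine 27, marks active promoters and enhancers, and H3K27me3, the Polycomb mark placed on the same residue, lies over silent developmental genes. A region with both H3K4me3 and H3K27me3 is called bivalent, and ATAC-seq reads open chromatin through the sites where the Tn5 transposase can insert.

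Described here are the H3K4me3 peaks of mouse muscle stem cells (MuSCs) that lay away from every annotated transcription start site (TSS) and carried no H3K27ac. They were selected on the H3K4me3 and H3K27ac peak lists as the H3K4me3 peaks of replicate 1 that overlapped a peak of replicate 2, lay more than 3 kb from every TSS of GENCODE M21, and overlapped no H3K27ac peak of either replicate. Of 20512 H3K4me3 peaks of replicate 1 on the assembled chromosomes, 16209 overlapped a replicate 2 peak, 2176 of these were distal, and 1132 carried no H3K27ac, which is 5.52% of all and 52% of the distal ones. The other distal peaks with H3K27ac (1044), the promoter peaks without it (3527) and the promoter peaks with it (10506) served for comparison.

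MuSCs are the Pax7-expressing stem cells of skeletal muscle. The 8 libraries used, 2 replicates each of ATAC-seq, H3K4me3, H3K27me3 and H3K27ac, came from GFP-positive cells sorted from hindlimb muscle of Pax7Cas9 mice, in which Pax7Cre switches on a Cre-dependent Cas9-EGFP gene at Rosa26, so that every library shares both alleles and only cells that had expressed Cre were sorted. The labels give skeletal muscle as the tissue, and neither treatment, strain nor age for these libraries, nor whether replicates were separate mice. In both H3K4me3 replicates a promoter peak lay at 13 of 13 muscle stem cell markers (*Pax7*, *Myf5* and *Myod1* among them), against 5 of 10 endothelial, 5 of 10 fibro-adipogenic and 4 of 9 blood markers, and H3K27ac marked 12, 1, 3 and 1 of them. The lists held 18001 to 20512 peaks for H3K4me3, 94382 to 140716 for ATAC-seq, 18584 to 24209 for H3K27ac and 6064 to 10458 for H3K27me3. The number of reads behind them is unknown.

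The windows below, 200 bases around the summit on the plus strand of mm10 with each CpG in capitals, are examples of the sequence under these peaks. Most were chosen as the strongest of a kind, so they are not typical of the 1132. They are the 3 strongest peaks, near *1520401A03Rik*, *Cbx8* and *Pax3* (the *Cbx8* one also being the strongest with H3K27me3), one of the strongest without open chromatin (in *Cntfr*), the one farthest from a TSS (nearest *Gm23503*), and the strongest whose window lies within 1 coding exon (in *Zfp697*). They lie at chr17:23699943-23700142, chr11:119056907-119057106, chr1:78217097-78217296, chr4:41683561-41683760, chr2:63702731-63702930 and chr3:98427744-98427943, in that order.
1520401A03Rik: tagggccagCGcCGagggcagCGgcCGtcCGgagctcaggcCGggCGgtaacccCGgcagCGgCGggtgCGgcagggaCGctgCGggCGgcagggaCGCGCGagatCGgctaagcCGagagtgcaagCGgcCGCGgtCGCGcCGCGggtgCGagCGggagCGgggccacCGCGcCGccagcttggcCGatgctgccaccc
Cbx8: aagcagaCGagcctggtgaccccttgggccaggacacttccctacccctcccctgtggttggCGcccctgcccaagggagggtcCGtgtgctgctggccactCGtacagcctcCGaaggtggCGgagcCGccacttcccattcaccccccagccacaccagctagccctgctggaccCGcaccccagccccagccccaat
Pax3: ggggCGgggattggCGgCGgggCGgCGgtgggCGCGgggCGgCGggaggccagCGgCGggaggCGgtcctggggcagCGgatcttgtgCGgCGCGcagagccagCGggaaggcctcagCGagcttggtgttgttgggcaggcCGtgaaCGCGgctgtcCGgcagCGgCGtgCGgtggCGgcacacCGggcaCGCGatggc
Cntfr: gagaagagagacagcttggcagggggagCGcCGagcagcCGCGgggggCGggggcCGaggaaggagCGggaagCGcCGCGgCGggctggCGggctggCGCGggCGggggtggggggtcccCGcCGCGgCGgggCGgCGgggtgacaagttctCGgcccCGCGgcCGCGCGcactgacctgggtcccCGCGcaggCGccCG
Gm23503: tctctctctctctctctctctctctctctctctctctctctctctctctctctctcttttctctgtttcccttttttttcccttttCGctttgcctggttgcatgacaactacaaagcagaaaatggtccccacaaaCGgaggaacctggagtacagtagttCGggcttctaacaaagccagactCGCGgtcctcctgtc
Zfp697: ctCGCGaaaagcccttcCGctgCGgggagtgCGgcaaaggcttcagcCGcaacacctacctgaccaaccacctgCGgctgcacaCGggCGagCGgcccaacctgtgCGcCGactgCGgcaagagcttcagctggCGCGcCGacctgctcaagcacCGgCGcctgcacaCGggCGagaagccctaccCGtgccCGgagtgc
The windows near *1520401A03Rik*, near *Pax3* and in *Cntfr* held 33, 29 and 31 CpG dinucleotides at 79%, 78% and 82% GC. The coding window of *Zfp697*, a zinc finger gene, held 22. The window near *Cbx8* held 8, and the one farthest from a TSS held 5 and began with a CT repeat. Most of these windows were richer in GC than the peaks at large. Over all of them the median in 300 bp around the summit was 54.3%, with quartiles at 49% and 61.7%.

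H3K4me3 at these peaks was weaker than at promoter peaks, above all those with H3K27ac. The median fold enrichment was 5.7 in replicate 1 and 4.31 in replicate 2, against 6.66 and 4.62 at distal peaks with H3K27ac. At promoter peaks it was 8.26 and 6.3 without H3K27ac and 25.7 and 18.6 with it. The range ran from 2.23 to 25.6 in replicate 1 and from 2.15 to 22 in replicate 2, and 970 of 1132 had the higher fold in replicate 1. The peaks were also narrow, with a median width of 604 bp and a range of 189 to 3490 bp. The medians were 820 bp at distal peaks with H3K27ac, 930 bp at promoter peaks without it and 1694 bp at promoter peaks with it. Among the 1096 that overlapped a single replicate 2 peak, Spearman's rho between the folds of the 2 replicates was 0.753, as a description across peaks of the same libraries. Since H3K4me3 chose these peaks, its values are no result about them.

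**Figure D1:**
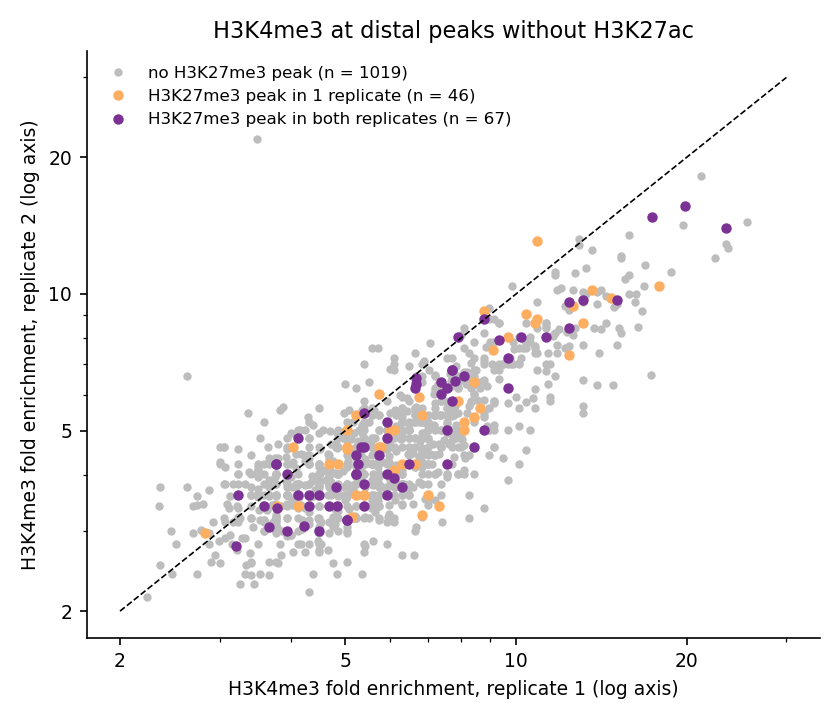
H3K4me3 fold enrichment of each distal peak without H3K27ac in replicate 1 (x axis) and replicate 2 (y axis), both on log axes, with the dashed line at equal values and colours for H3K27me3 overlap. Most of the 1132 points lie under the line, and the 67 peaks with H3K27me3 in both replicates are spread over the whole range of H3K4me3.

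Most of these peaks were open. An ATAC-seq peak overlapped 79.1% of them in replicate 1 and 77.7% in replicate 2, a mean of 78.4% ± 0.999 (SD, n = 2 libraries). In both replicates 832 had one (73.5%, where 93.3% of all 16209 replicated H3K4me3 peaks did), 110 had one in a single replicate, and 190 (16.8%) had none. The shares were lower than in each comparison class, where the means were 91.4% ± 1.9 at distal peaks with H3K27ac, 87.8% ± 2.41 at promoter peaks without it and 99.1% ± 0.0202 at promoter peaks with it (SD, n = 2 libraries each), and the values of the replicates did not overlap with those of any of them. All classes were measured in the same 2 libraries. Within replicate 1 and replicate 2 the share at distal peaks with H3K27ac was higher by 13.7 and 12.4 percentage points, and at promoter peaks without it by 10.4 and 8.43. An exact test of sign changes over 2 such differences cannot give a two-sided p under 0.5, so no test was run.

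The share of open peaks was higher where H3K4me3 was stronger. ATAC-seq overlapped a mean of 60.2% of the 201 peaks with an H3K4me3 fold of 2 to 4, 77.6% of the 429 from 4 to 6, 81.7% of the 270 from 6 to 8, 89.6% of the 163 from 8 to 12 and 96.4% of the 69 above 12. At matched fold, the shares at distal peaks with H3K27ac were 81.5% and 89.9% in the first and the second. Above 12 the shares were 96.4% ± 1.02 and 97.4% ± 1.02 (SD, n = 2 libraries), and the replicate values of the classes overlapped. The means of promoter peaks without H3K27ac were 59.7% and 74.4% in the first and the second, no higher than those of the distal peaks without it. From 6 to 8, from 8 to 12 and above 12 they were higher, at 89.1%, 95.9% and 98.3%. Below a fold of 6 the distal peaks without H3K27ac were thus not less open than this class. Overlap was counted over the whole peak here, and width was not matched between bins or classes. The distal peaks without H3K27ac had a median width of 636 bp when open in both replicates and 492 bp when open in neither. The part of width in these shares was not tested.

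**Figure D2:**
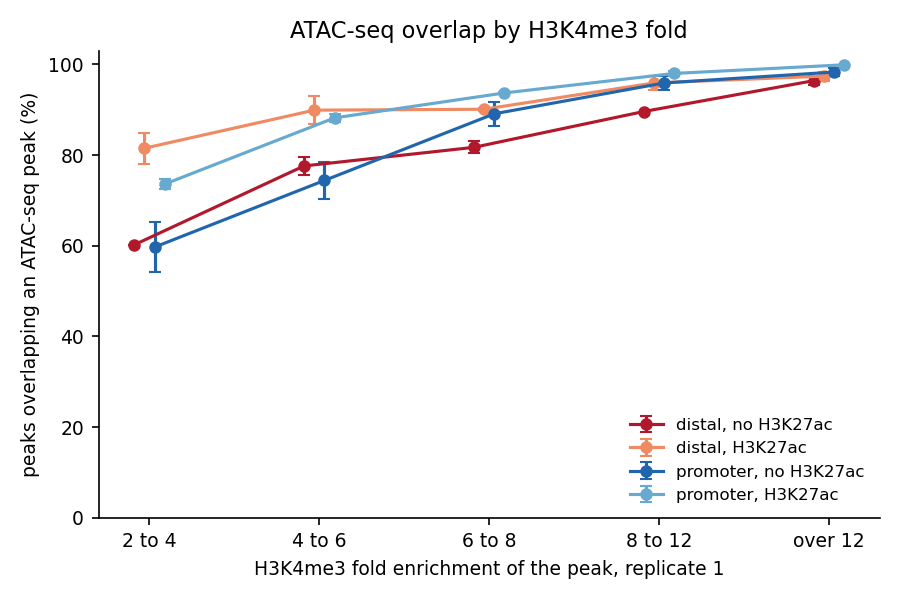
Share of H3K4me3 peaks that overlap an ATAC-seq peak (y axis, percent) by H3K4me3 fold enrichment in replicate 1 (x axis), for the 4 classes of peaks, with points for the mean and bars for the SD of the 2 ATAC-seq replicates. The distal peaks without H3K27ac rise from 60.2% to 96.4%, and the means of the distal peaks with H3K27ac lie above them in every bin, within the SD above 12.

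Where an ATAC-seq peak was present, its median fold was 8.28 in replicate 1 and 7.71 in replicate 2. The values were 10.2 and 9.98 at distal peaks with H3K27ac and 9.09 and 8.1 at promoter peaks without it. The strongest ATAC-seq fold of a region ran from 2.95 to 31.4 in replicate 1 and from 2.79 to 27.3 in replicate 2. In replicate 1, 384 of the regions held 2 or more ATAC-seq peaks, and in replicate 2, 274 did. Within 200 bp around the H3K4me3 summit the share that overlapped ATAC-seq was 66.4% in replicate 1 and 65.8% in replicate 2, a window chosen after the data had been seen. In this window of fixed length, which is free of the difference in peak width, the means were 66.1% ± 0.437 against 76.6% ± 1.15 at distal peaks with H3K27ac, 74.6% ± 2.19 at promoter peaks without it and 92.5% ± 0.262 at promoter peaks with it (SD, n = 2 libraries each).

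The 190 peaks without open chromatin had a median H3K4me3 fold of 4.85 in replicate 1 and 3.84 in replicate 2, against 6 and 4.61 at the 832 open in both. Their nearest ATAC-seq peak lay a median of 3182.5 bp away, and for 57 of them it lay within 1 kb. The strongest, chr8:90887037-90887399 in an intron of *Chd9*, a chromatin remodeller gene, had H3K4me3 folds of 22.4 and 12, was 363 bp wide and lay 6792 bp from the nearest ATAC-seq peak. Repeats made up 29.2% of its bases, against a median of 10.3% for the 190, and their part in its fold and its missing ATAC-seq peak was not tested. The next, chr4:41683376-41684205 in an intron of *Cntfr*, the receptor of ciliary neurotrophic factor, had folds of 10.4 and 7.62 and a GC content of 74.7%. The window printed above comes from this peak, and a RefSeq TSS of *Cntfr* lies inside it. The others were chr13:113013027-113014119 near *Mcidas*, a regulator of multiciliated cells (7.05 and 7.8), chr10:45000333-45000960 near *Gm4795* (7.83 and 6.94, with an ATAC-seq peak 83 bp away) and chrX:97431419-97431738 near *Eda2r*, a TNF receptor family gene (6.64 and 7.42).

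**Figure D3:**
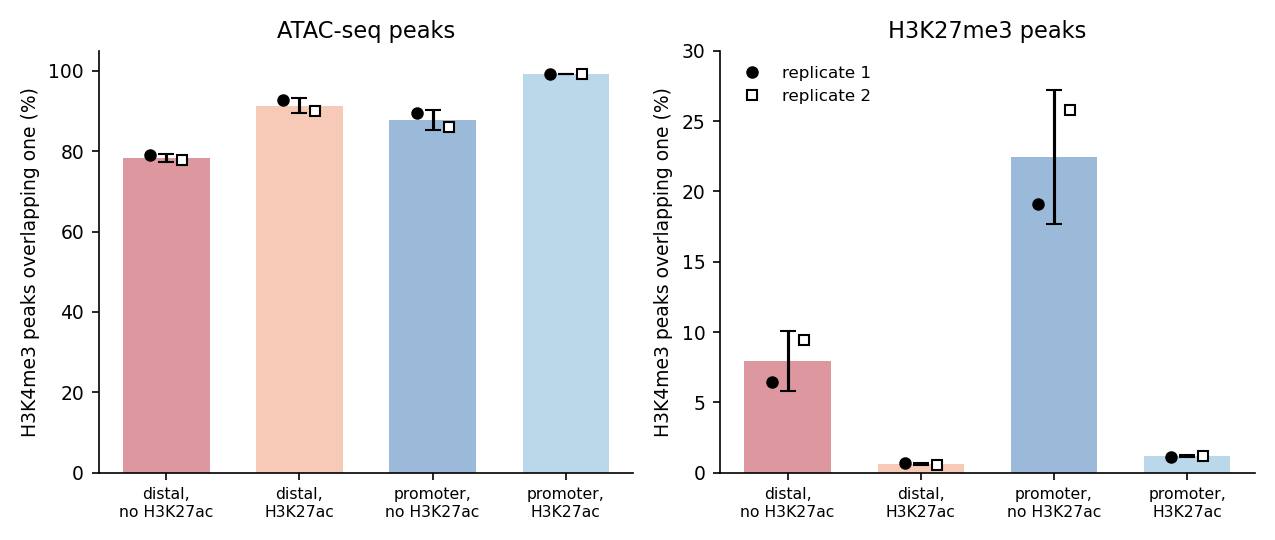
Share of H3K4me3 peaks that overlap an ATAC-seq peak (left) or an H3K27me3 peak (right) for the 4 classes, with bars at the mean, error bars for the SD and a point for each of the 2 replicates. Distal peaks without H3K27ac have the lowest ATAC-seq share (78.4%) and, after promoter peaks without H3K27ac, the next highest H3K27me3 share (7.95%).

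Called H3K27me3 peaks overlapped few of these regions. The share was 6.45% in replicate 1 and 9.45% in replicate 2, a mean of 7.95% ± 2.12 (SD, n = 2 libraries), against 0.623% ± 0.0677 at distal peaks with H3K27ac, 22.5% ± 4.73 at promoter peaks without it and 1.17% ± 0.0673 at promoter peaks with it. The replicate values did not overlap between the distal peaks without H3K27ac and any of these classes. In both replicates 67 of 1132 carried it (5.92%, where 4.48% of all replicated H3K4me3 peaks did) and in either replicate 113 (9.98%, where 8.00% did). H3K27ac and H3K27me3 sit on the same lysine, so the absence of H3K27ac that chose these peaks is not independent of H3K27me3. In a bulk of sorted cells, both marks on the same alleles and each mark in different cells cannot be told apart.

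The H3K27me3 lists were loose, since 47.3% of the peaks of replicate 1 and 38.5% of those of replicate 2 had a q-value above 0.05. Their peaks were also short, with a median width of 176 bp in replicate 1 and 181 bp in replicate 2. A region that lay between such peaks counted as without H3K27me3. The classes differ in peak width, and their H3K27me3 shares were not compared in a window of fixed length. With H3K27me3 peaks of a q-value of at most 0.05, the shares were 4.95% and 7.77%, against 0.383% and 0.575% at distal peaks with H3K27ac, and 53 regions carried it in both replicates. With a q-value of at most 1e-05 for H3K27me3, 0.707% and 2.47% of the regions remained and 6 in both replicates, against 0.192% and 0.383% at distal peaks with H3K27ac. With the rule applied to the replicate 1 lists alone, 2610 peaks were chosen and 4.29% of them overlapped H3K27me3.

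The 67 peaks with H3K27me3 in both replicates were rich in CpG and mostly near genes. Their median CpG observed/expected ratio, the count of CpG over the count that the C and G content alone would give, was 0.78, against 0.498 at the 1019 peaks with H3K27me3 in neither. CpG-island-like windows (300 bp around the summit with over 50% GC and a ratio over 0.6) lay at 60 of 67 (89.6%), against 283 of 1019 (27.8%). The median distance to the nearest TSS was 5452 bp against 13123 bp. Within 10 kb of a TSS lay 49 of 67, while 672 of all 1132 lay farther than 10 kb from every TSS. A gene body overlapped 39 (58.2%, where 40.8% of all 1132 were overlapped), and 22 (32.8%) had their summit in a coding exon, against 7.07% of those without H3K27me3. ATAC-seq peaks were present in both replicates at 44 (65.7%), in one at 11 and in neither at 12. The median H3K27me3 fold was 4.5 in replicate 1, with a range of 3.38 to 7.13, and 5.13 in replicate 2, with a range of 3.42 to 9.58.

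The nearest gene often carried H3K27me3 at its own promoter. Within 3 kb of a TSS of the nearest gene, H3K27me3 was called in both replicates for 49 of the 67 (73.1%), against 70 of the 1019 without H3K27me3 (6.87%) and 29 of the 1044 distal peaks with H3K27ac (2.78%). H3K27ac marked the nearest promoter in both replicates for 12 of 67 (17.9%), 281 of 1019 (27.6%) and 514 of 1044 (49.2%). The groups were chosen by the same H3K27ac and H3K27me3 lists, and a promoter window can adjoin a region. These shares are therefore not independent of that choice. Distance to the TSS was not matched between the groups.

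Cbx8 is a chromodomain subunit of Polycomb repressive complex 1, which binds H3K27me3. The peak chr11:119055844-119057530, 14875 bp upstream of *Cbx8*, had H3K4me3 folds of 19.9 and 15.6, H3K27me3 folds of 3.75 and 7.19, and ATAC-seq folds of 3.43 and 3.09. All 3 readouts were thus called in both replicates. The H3K27me3 fold of replicate 1 lay below the median of its list (3.93), and the ATAC-seq folds lay near the lowest of these peaks (2.95 and 2.79).

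*Pax3*, the paralog of *Pax7* that acts in embryonic muscle progenitors, had a pair of such peaks upstream. The farther, chr1:78215840-78218476, lay 18706 bp away with H3K4me3 folds of 17.4 and 14.8, H3K27me3 folds of 4.13 and 3.76 and ATAC-seq folds of 6.56 and 7.71. It held 7 ATAC-seq peaks in replicate 1 and 5 in replicate 2, and RefSeq places a TSS of *Gm2102* inside it. The nearer, chr1:78203113-78204349, lay 5979 bp away with H3K4me3 folds of 15.1 and 9.71, H3K27me3 folds of 4.77 and 5.13 and ATAC-seq folds of 7.06 and 9.14. A RefSeq TSS of *Gm33152* lay 1891 bp from it. The peak chr2:18688710-18690756, 3276 bp upstream of the sperm flagellar gene *Spag6*, was also among the 5 strongest with H3K27me3, with folds of 13.1 and 9.7 for H3K4me3 and 5.65 and 4.94 for H3K27me3. RefSeq places a TSS of *Gm46725* inside this peak.

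Some of these peaks lay near transcription factor genes of embryonic patterning. Of 154 genes of a list of developmental transcription factors (0.278% of all genes), 28 had a distal peak without H3K27ac within them or nearest to them, which were 33 of the 1132 peaks (2.92%), against 5 of 1044 distal peaks with H3K27ac (0.479%). Of the 33, 18 carried H3K27me3 in both replicates and 23 an ATAC-seq peak in both. At their own promoters 133 of the 154 genes had H3K27me3, 125 had H3K4me3 and 25 had H3K27ac in both replicates. The list was made with earlier results of these data known, and intergenic space was not matched between genes.

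Besides *Pax3*, the list included the peak chr11:85837175-85838437 in a coding exon of *Tbx2*, a T-box repressor, with H3K4me3 folds of 7.72 and 6.81 and H3K27me3 folds of 4.88 and 6.16. The peak chr1:89968177-89968702 in a coding exon of *Asb18*, with *Gbx2*, a hindbrain homeobox gene, nearest, had H3K4me3 folds of 7.36 and 6.41, H3K27me3 folds of 4.13 and 4.45, and no ATAC-seq peak within 23213 bp. The peak chr3:127625446-127626091 upstream of *Neurog2*, a proneural factor, had H3K4me3 folds of 6.66 and 6.34 and H3K27me3 folds of 4.13 and 4.6. *Barx1*, *Foxc1*, *Gata4*, *Nkx2-5*, *Otx1*, *Evx2*, *Gsx2*, *Foxa1* and *Hoxb3* also were the nearest gene of a peak with H3K27me3 in both replicates. At *Meis1*, a HOX cofactor, the peak chr11:19026391-19027829 had H3K4me3 folds of 14.1 and 8.37 and no H3K27me3 in either replicate.

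The other lists were short, with 9 to 28 genes each, so that their counts are small. *Pax7* itself had 1, chr4:139738276-139739499, with its summit in an untranslated region at 98.4% of the gene's length from its start, H3K4me3 folds of 6.33 and 3.81, and no ATAC-seq peak in either replicate. It was the only gene of the 13 muscle stem cell markers with one (0.0883% of the peaks, where the list is 0.0235% of all genes). The blood list had 1 (*Spi1*, 9.69 and 3.9), the neuron list 1 (*Rbfox3*, 7.74 and 5.61), the imprinted list 2 (*Cdkn1c*, 4.31 and 4.81, and *Grb10*, 4.49 and 2.7; 0.177% of the peaks, where the list is 0.0506% of all genes), and the endothelial, fibro-adipogenic and myofibre lists had 0 each.

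Most of these peaks lay outside gene bodies, as does most of the sequence more than 3 kb from every TSS, at a near-equal share. A gene of any type overlapped 462 of 1132 (40.8%, 95% exact Clopper-Pearson interval 37.9 to 43.7, for counting error only), against 46.2% (43.1 to 49.2) at distal peaks with H3K27ac. Gene bodies cover 40.6% of the sequence that lies more than 3 kb from every TSS. A protein-coding gene overlapped 399 (35.2%), where 34.9% of that sequence is in one. By the summit, 677 were intergenic, 309 intronic, 99 in a coding exon, 27 in an untranslated region and 20 in a noncoding exon.

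Coding exons held CpG-rich peaks, most of them open. They contained the summit of 99 of 1132 peaks (8.75%, interval 7.16 to 10.5), against 3.26% (2.27 to 4.52) at distal peaks with H3K27ac, and make up 0.788% of the sequence more than 3 kb from a TSS. The 99 had a median CpG ratio of 0.757 and a GC content of 65.2%, against 0.471 and 51.9% at the 309 intronic and 0.508 and 52.7% at the 677 intergenic peaks. ATAC-seq peaks were present in both replicates at 85.9%, 69.3% and 73.7% of them, and H3K27me3 in both at 22.2%, 4.21% and 4.14%. Within protein-coding genes, the summits in coding exons had a median position at 82.7% of the gene's length, and 65 of 99 lay beyond 75% of it. For the intronic ones the values were 46.6% and 62 of 262. The rule leaves out sequence near every TSS, and the position of all coding sequence beyond 3 kb was not measured. Whether the 3′ position is particular to these peaks was therefore not tested.

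Of the peaks in coding exons, the strongest was chr3:98427075-98428631 in *Zfp697*, at 12.2% of the gene's length. It had H3K4me3 folds of 19.7 and 14.2 and ATAC-seq folds of 18.4 and 16.5. The peak chr17:87745416-87746967 at the 3′ end of *Kcnk12*, a potassium channel gene, had H3K4me3 folds of 12.9 and 13.2 and ATAC-seq folds of 7.14 and 6.07. The peak chr9:77654987-77656070 in *Klhl31*, a Kelch family gene of skeletal muscle, had H3K4me3 folds of 13.6 and 12.5 and ATAC-seq folds of 11.5 and 11.2. The peak chr8:84558903-84559768 in *Cacna1a*, a calcium channel gene, had H3K4me3 folds of 11.8 and 10.2 and a CpG ratio of 1.04. None of these 4 carried H3K27me3 in either replicate. *Klhl31* and *Cacna1a* were chosen from the strong coding exon peaks after the values had been seen. A peak stronger than that of *Cacna1a* by the lower fold, with a CpG ratio of 0.581, is not described.

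The distance to the nearest TSS varied widely above the 3 kb that the rule sets. Its median was 12348 bp (95% interval of the median 11458 to 13248), with quartiles at 6539.8 and 25338.2 bp and a maximum of 270343 bp. The nearest TSS belonged to a protein-coding gene for 573 (50.6%), a lincRNA for 166 and a processed pseudogene for 162, and the peak lay downstream of it for 610 and upstream for 522. Between 3 and 5 kb lay 197 peaks, between 5 and 10 kb 263, between 10 and 20 kb 296, between 20 and 50 kb 256, and beyond 50 kb 120.

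CpG content, H3K27me3 and open chromatin had different shares over these bins, given here with no test. From the nearest to the farthest of these bins, CpG-island-like windows made up 43.7%, 39.5%, 32.4%, 28.9% and 19.2%. H3K27me3 in both replicates was at 14.7%, 7.6%, 2.36%, 3.12% and 2.5%. ATAC-seq peaks in both replicates were at 74.1%, 79.8%, 75%, 71.1% and 60%. The median H3K4me3 fold in replicate 1 showed no such order, from 5.4 to 5.92 over the 5 bins.

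**Figure D4:**
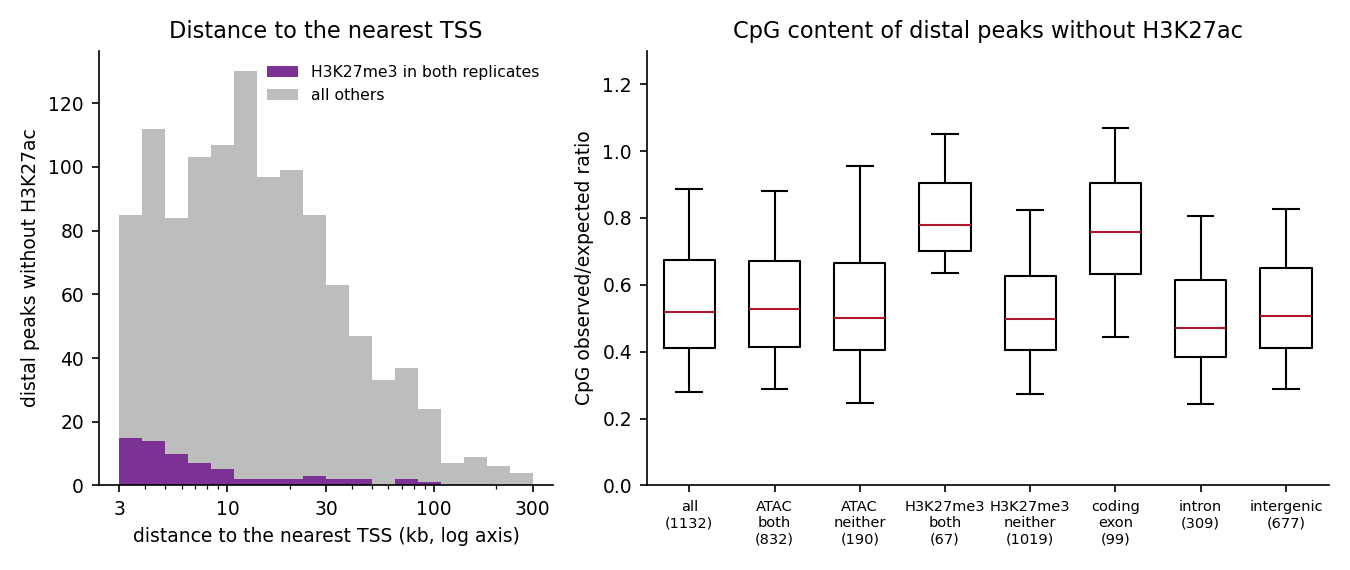
Left, number of distal peaks without H3K27ac by distance to the nearest TSS (kb, log axis), with those under H3K27me3 in both replicates in purple. Right, CpG observed/expected ratio of groups of these peaks (number in parentheses), with the median, the quartiles and whiskers at the percentiles 5 and 95. The purple peaks gather at short distances, and the groups with H3K27me3 in both replicates (median 0.78) and in coding exons (0.757) stand above the rest.

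The 5 peaks farthest from a TSS had H3K4me3 folds on either side of the medians of 5.7 and 4.31. The peak chr2:63702537-63703116, 270343 bp from the TSS of *Gm23503*, had H3K4me3 folds of 3.95 and 4.56 and ATAC-seq folds of 11.6 and 11.1. At chr14:114567737-114568107, 253118 bp from *Gm37495*, they were 3.34 and 2.53 without an ATAC-seq overlap but with an ATAC-seq peak 9 bp away, and at chr2:46055546-46056237, 246074 bp from *Gm13466*, 5.29 and 4.01, without an overlap and 11950 bp from the nearest. An intron of *Rora*, a nuclear receptor gene, held chr9:68888884-68889147 (5.16 and 3.76), 233581 bp from the TSS and without ATAC-seq overlap. An intron of *Wwox* held chr8:115249858-115250533 (5.92 and 4.56), 196945 bp away and open in both replicates.

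At the 3 kb threshold, the peaks just inside were in *Gm35934* (3008 bp, H3K4me3 folds 6 and 4.61), *Otud7a* (3048 bp, 4.31 and 3.41) and *Gdf7* (3052 bp, 5.33 and 4.61). The last 2 lay in coding exons with H3K27me3 in both replicates. Just outside were peaks near *Bahd1* (2998 bp, 11.3 and 8.62), *Mybpc2* (2978 bp, 5.74 and 4.21) and *Mical2* (2978 bp, 2.92 and 2.41), none with H3K27me3.

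Distance depends on which TSS are annotated. RefSeq, on the same genome build, places a TSS within 3 kb of 179 of the 1132 (15.8%), and inside 68 of them, and a curated RefSeq transcript starts within 3 kb of 24. At distal peaks with H3K27ac the share was 15.5% (95% exact interval 13.4 to 17.9), which overlaps the interval of 13.7 to 18.1 here. Among the strongest, the peak chr8:122230041-122231410 in an intron of *Gm20388*, with folds of 15.8 and 13.5, lay 38159 bp from the GENCODE TSS of *Zfp469*, a zinc finger gene, and covered a RefSeq TSS of it. The peaks with a curated RefSeq TSS nearby had a median H3K4me3 fold of 7.43 in replicate 1 and 5.51 in replicate 2. Other named peaks also lay near a RefSeq TSS. It was 1658 bp from the peak nearest *Gbx2*, 2712 bp from that of *Neurog2* and 416 bp from the widest peak, upstream of *Trim27*.

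Genes of transfer RNA, which RNA polymerase III transcribes from promoters within the gene, lay under some of the strongest peaks. Of 403 tRNA genes in RefSeq, 22 lay under 15 of the distal peaks without H3K27ac (1.33% of these peaks). Another 44 lay under 27 of the distal peaks with H3K27ac (2.59%). Over all 16209 replicated H3K4me3 peaks the share with a tRNA gene was 0.611%. The 15 had median H3K4me3 folds of 10.4 and 6.29, a median width of 1404 bp and a GC content of 44.2%. ATAC-seq peaks in both replicates lay within 12 of these 15, but on the tRNA gene itself for only 10 of the 22 genes. On chromosome 13, between 21158830 and 23526942, lay 11 of the 15, in the region where mouse tRNA and histone genes cluster. The strongest, chr13:21158830-21161545, nearest to the olfactory receptor gene *Olfr1368*, had H3K4me3 folds of 25.6 and 14.4 and ATAC-seq folds of 7.52 and 8.16, and was also among the 3 widest (2716 bp). The widest of all (3490 bp), chr13:21166753-21170242 upstream of *Trim27*, held 5 tRNA genes and had folds of 18.8 and 11.2. The third of the widest was chr1:14503903-14507380, 193668 bp upstream of *Eya1*, a transcriptional coactivator of early muscle development, with H3K4me3 folds of 11.3 and 8.43 and ATAC-seq folds of 14.9 and 14.1. The tRNA genes were singled out after the values had been seen.

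The phenylalanine tRNA gene under the *Olfr1368* peak, at chr13:21161365-21161517 with 40 bases on either side, is shown with the gene in capitals. The plus strand is the coding strand, and the gene holds the letters GGTTCGA of the B box, part of the internal promoter.
n-TFgaa4: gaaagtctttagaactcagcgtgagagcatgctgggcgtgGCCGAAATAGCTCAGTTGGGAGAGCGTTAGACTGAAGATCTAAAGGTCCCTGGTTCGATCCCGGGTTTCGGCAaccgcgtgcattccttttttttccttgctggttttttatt

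The remaining strong peaks were of mixed place. The strongest of all by the lower of the 2 replicates, chr17:23699327-23700380, lay between genes 5959 bp downstream of the TSS of *1520401A03Rik*, with H3K4me3 folds of 21.2 and 18.2, ATAC-seq folds of 22.2 and 25.1, and a GC content of 73.3%. The peak chr3:37204064-37204868 near *Gm12532* had H3K4me3 folds of 23.5 and 12.9 with a CpG ratio of only 0.4. An intron of *Phactr1*, a regulator of actin and protein phosphatase 1, held chr13:42916151-42917359 with folds of 12.9 and 12.8 and ATAC-seq folds of 6.75 and 7.29. A RefSeq TSS of *Phactr1* lay 1329 bp from this peak. All 9 of the strongest peaks described here were open in both replicates, and 2 of them carried H3K27me3 in both.

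**Figure D5:**
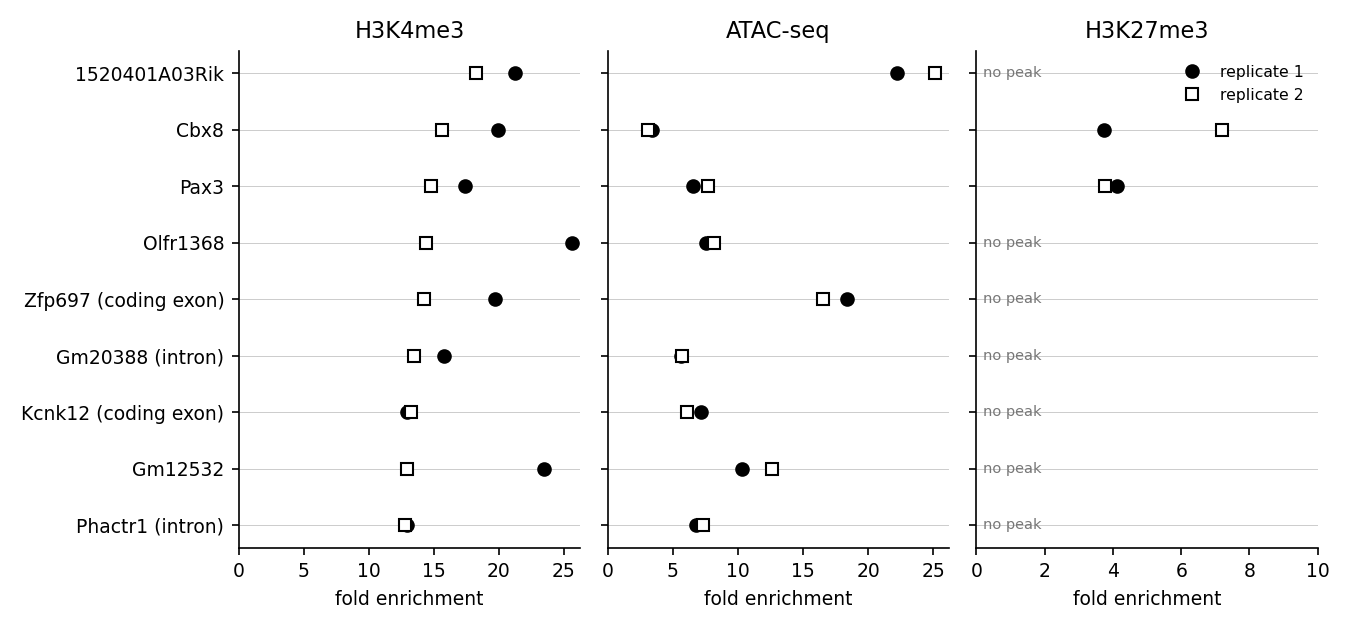
Fold enrichment of H3K4me3, ATAC-seq and H3K27me3 (x axes) at 9 of the strongest distal peaks without H3K27ac, named by the gene that holds the summit where that is an exon or intron and otherwise by the gene of the nearest TSS, with circles for replicate 1 and squares for replicate 2. H3K27me3 is present at the peaks near *Cbx8* and *Pax3* alone among the 9 shown, and ATAC-seq at all 9.

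In CpG content, the distal peaks without H3K27ac lay between the distal peaks with it and the promoter peaks of H3K4me3. Their median CpG ratio was 0.519 (95% interval of the median 0.504 to 0.536), against 0.43 (0.418 to 0.445) at distal peaks with H3K27ac, 0.677 at promoter peaks without it and 0.663 at promoter peaks with it. In 300 bp around the summit the median ratios were 0.559, 0.468, 0.757 and 0.824 in the same order. Promoters taken without regard to H3K4me3 were lower than all of these, with a median of 0.383 over 32815 RefSeq promoter windows of 300 bp. CpG-island-like windows made up 33.8% (383), against 21.7%, 73% and 82.3%. The median GC content was 53.2%, and a median of 8.71% of the bases were masked as repeats. Among the 383 with such windows, 79.9% were open in both replicates and 15.7% carried H3K27me3 in both, against 70.2% and 0.935% of the 749 without.

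Short motifs were counted in windows of 1 length. Searched on both strands in 300 bp around the summit, the GC box GGGCGG was in 33.6% of the distal peaks without H3K27ac, 26.1% of those with it, 59.7% of promoter peaks with H3K27ac and 35.6% of 32815 RefSeq promoter windows of the same length. The core letters AGNNGGCGC of CTCF, a factor at loop anchors, were in 9.1%, 5.08%, 13.8% and 7.23%, and may overlap a GC box. The E box CAGCTG, which myogenic basic helix-loop-helix factors can bind, was in 25.5%, 24.1%, 16% and 16.3%. AP-1 letters TGANTCA were in 4.33%, 5.36%, 2.08% and 7.81%, and the TEAD letters GGAATG in 14%, 15.3%, 8.81% and 14.7%. Promoter peaks without H3K27ac held the GC box in 58%, the CTCF letters in 16.6% and the E box in 19.5%. In that class the AP-1 letters were in 2.24% and the TEAD letters in 9.9%. At the 67 peaks with H3K27me3 in both replicates the GC box was in 56.7% and the TEAD letters in 4.48%.

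Most of these peaks had no other of their kind nearby. Within 10 kb of each other lay 60 of the 1132, in 28 groups of at most 4, and 1072 stood alone. The same count was not made for other H3K4me3 peaks or for random positions, so clustering was not tested. At *Foxc1*, a forkhead factor gene, 3 peaks lay within chr13:31801173-31821038 with H3K4me3 folds of 3.77 to 4.49 in replicate 1 and 3.01 to 4.21 in replicate 2, and 2 of them carried H3K27me3 in both replicates. Chromosome 11 held the most (99), and the X chromosome held 27. Of those 27, 17 were open in both replicates and 0 carried H3K27me3 in either, where 9.98% of all 1132 did. The shares of all H3K4me3 peaks on these chromosomes were not computed. The nearest H3K27ac peak lay a median of 39989 bp away, and within 5 kb for 106 (9.36%).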

How the data were processed

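The deposited files are MACS2 peak lists, 1 per library, from 8 of the 272 samples; editing outcomes and ChIP inputs were not used here. Per the paper and the submitters' processing notes, the authors trimmed reads with Trim Galore 0.6.10, aligned them to mm10 with BWA 0.7.17-r1188, removed duplicates, reads of low mapping quality (SAMtools 1.5) and blacklisted regions, shifted ATAC-seq reads for the Tn5 offset (deepTools 3.5.5) and called peaks with MACS2 2.2.6. Since reads of low mapping quality were removed, values at tRNA genes, repeats and other near-identical copies are uncertain. The deposited fold is a ratio, the enrichment that MACS2 gives at the summit. The deposited p-value and q-value are −log10 values, and the authors' score was not used. The lists hold no read numbers, so depth is unknown.

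Regions of the 21 assembled chromosomes were set against GENCODE M21 (55413 genes, 141730 transcripts) and RefSeq on GRCm38.p6 (mm10), with overlap from 1 bp and distance from the nearest edge of a peak, in Python 3.11.15 with pandas 2.3.3, scipy 1.17.1 and pysam 0.24.0. The functions for overlap and distance were tested on simulated intervals. No test was run, since regions are not replicates and 2 libraries a feature leave an exact test no power. Means ± SD are over 2 libraries. The labels do not say whether replicates are separate mice, and their numbers are shared across assays. Sequences are from the RefSeq genome.

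The members and gene lists were chosen with earlier results of these data known. Some of the regions that the rule below selects are not reported here. Regions named are the 10 strongest by the lower H3K4me3 fold of the 2 replicates, the 5 strongest with H3K27me3 in both and without ATAC-seq, the 5 farthest from a TSS, 3 on either side of 3 kb, the 3 widest, and up to 3 examples for each list. Others are said to be chosen after values were seen, as were the further *Tbx2*, *Gbx2* and *Neurog2* examples. The sequence of the strongest peak without ATAC-seq is not shown, and the next is given in its place. The alternatives tried changed the q-value, the overlap, the distance, the annotation, the H3K27ac exclusion and the replicates used.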

Additional observations from a re-analysis of the deposited data

How the results depend on the processing

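The classes share their libraries, and differences within a library are given with the results. No model was fitted, and so none with a replicate block. Of the alternatives, the count of 1132 peaks moved by over 1.5 times beyond 10 kb from a TSS (672) and with the replicate 1 lists alone (2610). Leaving out a replicate gave 1622 to 2610 peaks, an ATAC-seq share of 66.4% to 70.3%, an H3K27me3 share of 4.29% to 7.03%, a gene body share of 43.2% to 45.2%, a median distance of 11890 to 12875.5 bp and a CpG ratio of 0.466 to 0.522. The ATAC-seq share (78.4%) was 80.5% at a −log10 q of at least 5 in all lists, 71.8% with an overlap of 50% of the shorter peak, 77.2% beyond 1 kb, 76.1% beyond 10 kb and 70.3% over replicate 2 peaks. The H3K27me3 share (7.95%) was 1.38% at a −log10 q of at least 5 and 4.24% beyond 10 kb. The gene body share (40.8%) was 47.4% beyond 1 kb, 33.8% beyond 10 kb, 50.5% with TSS of protein-coding genes only and 35.2% for protein-coding gene bodies. The median distance (12348 bp) was 8853 bp beyond 1 kb, 22561.5 bp beyond 10 kb and 22963 bp with protein-coding TSS only, where the rule itself sets the minimum or the TSS. The CpG ratio (0.519) was 0.502 beyond 10 kb, 0.54 with protein-coding TSS only, 0.549 over replicate 2 peaks and 0.559 in 300 bp around the summit.

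Alternatives chosen after seeing the data were RefSeq TSS counted too, which left 953 peaks and a median distance of 10670 bp, and overlap within 200 bp around the summit, with an ATAC-seq share of 66.1% and an H3K27me3 share of 5.7%. The other alternatives stayed within 1 SD between replicates, within the 95% interval or, for the count, within 1.5 times. Other causes of these shifts were not tested. With unknown depth, a region without a listed peak may carry the feature below the threshold of the caller.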
